A study of Mus musculus with 8 samples.

Results

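The DNA sites of Myc and of E2f3 were compared in intestinal crypt cells of control mice. The Myc list held 159181 sites and the E2f3 list 32666, together 191847 of the 284230 sites in the 8 libraries of the study. A site of either list counted as shared when a site of the other lay within 250 bp. A promoter site was one at most 1 kb from the start of a protein-coding transcript, and a gene with such a site counted as having that factor. By this rule 2596 of 22232 protein-coding genes had Myc only, 1233 had both and 2007 had E2f3 only.

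Binding was measured by ChIP-exo, in which chromatin is precipitated with an antibody and an exonuclease trims the DNA up to the crosslinked protein. Both groups were wild-type mice of a mixed background (C57BL/6 X 129 X FVB/N). Chromatin was precipitated with anti-Myc (Santa Cruz sc-764 X) in the first group and with anti-E2f3 (Santa Cruz sc-878 X) in the second, with 1 library each. The other libraries came from crypt or villus cells of control mice and of mice whose Rb was deleted by Ah-cre, an inducible Cre of the intestine. Whether the control mice carried Ah-cre, and how many mice each library pooled, is not given in the sources used here.

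Intestinal crypts hold the stem and transit-amplifying cells that renew the epithelium. Myc binds DNA as a dimer with Max, preferably at the E-box CACGTG, and is known as an activator of genes for ribosome production and growth downstream of Wnt signalling in crypts. E2f3, held in check by Rb, binds E2F motifs near the start sites of genes for DNA replication and the cell cycle.

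With 1 library for each antibody, no difference below has a replicate check, and no test was possible. Intervals are exact 95% binomial intervals and cover counting error only. The number of reads is unknown for every library, and a longer list has more chance matches. The shares between the lists of control crypt are therefore set beside the part of the reference that the other list covers. This cover was not computed for the other libraries, so shares that involve them are not set against list length. Neither input DNA nor an unspecific antibody was analysed here, and lists of sites hold no RNA from which the labelled cell type could be checked. Each site carries the authors' score, capped at 999, whose meaning is not stated. It was used to rank sites within a list, and scores of the Myc and the E2f3 list are not on a common scale.

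The following stretches of the mm9 reference (assembly NCBIM37, plus strand) show what lay at the sites on which the results turn. E-boxes (CACGTG) and E2F motifs (TTNNCGC, where each N is C or G, on either strand) are in capitals. Around all 45974 start sites, an E-box lay within 50 bp of 2.93% and an E2F motif within 50 bp of 4.81%. The first 5 sequences belong to Myc promoter sites that had an E-box within 50 bp and no E2f3 site within 250 bp and that lay within 250 bp of a Myc site of Rb-deficient crypt. They were chosen after their values were seen. Ncl, which encodes nucleolin of the nucleolus, had a pair of such sites in an intron. Cct8 encodes a chaperonin subunit, Cdk7 a kinase of the transcription machinery, Mlxip a partner of the Myc network protein Mlx, and Odc1 the rate-limiting enzyme of polyamine synthesis. The Cct8, Cdk7 and Mlxip sites lay upstream of their genes and the Odc1 site lay in an intron. The Cdk7 site lay within 250 bp of a site of an E2f3 library other than that of control crypt.
Ncl (chr1:88255183-88255418): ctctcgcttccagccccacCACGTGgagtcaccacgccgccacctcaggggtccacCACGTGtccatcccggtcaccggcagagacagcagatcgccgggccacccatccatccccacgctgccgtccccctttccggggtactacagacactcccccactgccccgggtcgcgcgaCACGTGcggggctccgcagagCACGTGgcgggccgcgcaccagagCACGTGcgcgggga
Cct8 (chr16:87496535-87496595): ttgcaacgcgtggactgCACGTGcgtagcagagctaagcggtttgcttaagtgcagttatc
Cdk7 (chr13:101500968-101501028): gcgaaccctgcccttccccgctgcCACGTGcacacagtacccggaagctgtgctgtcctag
Mlxip (chr5:123844427-123844487): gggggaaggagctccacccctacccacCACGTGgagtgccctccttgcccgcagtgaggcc
Odc1 (chr12:17552008-17552068): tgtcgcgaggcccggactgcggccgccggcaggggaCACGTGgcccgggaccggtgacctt

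The next set shows Myc sites with high scores within the list and neither motif in the stretch shown. Bbc3, the p53 target known as Puma, had a capped Myc site in an intron with an E2f3 site 7 bp away. Actl7a, which encodes an actin-like protein of the testis, had a Myc site upstream that was not shared. The E2f3 gene had a Myc site in an intron at 573 bp from its nearest start site.
Bbc3, Myc site (chr7:16896023-16896083): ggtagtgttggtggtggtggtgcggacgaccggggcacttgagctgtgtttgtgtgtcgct
Actl7a, Myc site (chr4:56755708-56755768): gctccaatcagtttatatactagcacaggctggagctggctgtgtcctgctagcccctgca
E2f3, Myc site (chr13:30076934-30076994): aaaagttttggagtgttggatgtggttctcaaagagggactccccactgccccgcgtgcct

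The last set shows E2f3 sites with an E2F motif. Those of E2f3 itself, Mycn, Mxd3, Mcm4 and Dclre1a lay upstream of their genes with no Myc site within 250 bp. That of Nolc1, which encodes a nucleolar phosphoprotein, also lay upstream, with a Myc site 234 bp away. The E2f3 site of the Myc gene lay at -81 bp from the nearest start site, inside the 5′ UTR of a longer transcript, and had no Myc site within 250 bp either. Shq1, which encodes an assembly factor of small nucleolar RNPs, had a shared site in an intron, 20 bp from the Myc site.
E2f3, E2f3 site (chr13:30077910-30077970): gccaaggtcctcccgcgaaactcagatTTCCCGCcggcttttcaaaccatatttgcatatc
Myc, E2f3 site (chr15:61817026-61817050): cgacgcttgGCGGGAAaaagaaggg
Mycn, E2f3 site (chr12:12948788-12948848): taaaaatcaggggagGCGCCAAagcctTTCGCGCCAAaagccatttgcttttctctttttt
Mxd3, E2f3 site (chr13:55431452-55431512): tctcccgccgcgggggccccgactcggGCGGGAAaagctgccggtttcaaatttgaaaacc
Mcm4, E2f3 site (chr16:15637683-15637743): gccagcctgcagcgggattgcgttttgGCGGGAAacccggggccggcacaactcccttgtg
Dclre1a, E2f3 site (chr19:56622676-56622736): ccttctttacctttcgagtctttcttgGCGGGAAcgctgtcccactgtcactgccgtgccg
Nolc1, E2f3 site (chr19:46150177-46150237): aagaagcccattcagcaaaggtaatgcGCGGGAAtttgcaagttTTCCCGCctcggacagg
Shq1, E2f3 site (chr6:100620874-100620934): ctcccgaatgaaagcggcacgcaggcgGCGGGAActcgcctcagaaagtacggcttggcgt

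Of the Myc sites, 29406 of 159181 were shared, which is 18.5% (18.3 to 18.7). Of the E2f3 sites, 27739 of 32666 were shared, which is 84.9% (84.5 to 85.3). Bases within 250 bp of an E2f3 site made up 0.627% of the reference, and bases within 250 bp of a Myc site 3.03%. Both shares were therefore many times the cover of the other list. The place of a site made little difference to the shared percentage for Myc and a large one for E2f3. Within 1 kb of a start site 921 of 4292 Myc sites were shared (21.5%, 20.2 to 22.7), and elsewhere 28485 of 154889 (18.4%). Within 1 kb of a start site 903 of 3402 E2f3 sites were shared (26.5%, 25.1 to 28.1), and elsewhere 26836 of 29264 (91.7%, 91.4 to 92.0). Most E2f3 sites away from promoters thus had a Myc site beside them, and most E2f3 promoter sites did not. Myc sites covered 3.54% of promoter bases and 3.01% of other bases, and E2f3 sites covered 2.75% of promoter bases and 0.577% of other bases. Set beside this cover, the shares of both lists stood further above it away from promoters than at promoters.

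The same measure in the other tissues gave other balances between the lists. In Rb-deficient crypt 50.5% of 31397 Myc sites and 58.0% of 27396 E2f3 sites were shared. In Rb-deficient villus the shares were 76.5% of 4119 Myc sites and 21.4% of 14843 E2f3 sites, and in control villus 55.7% of 7223 Myc sites and 54.3% of 7405 E2f3 sites. The lists of control crypt were the most unequal in length, and whether length accounts for the difference was not tested. When the Myc list of control crypt was limited to its 32666 highest-scoring sites, 64.9% of these Myc sites and 64.4% of the E2f3 sites were shared.

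Sharing of Myc sites fell with their rank. Of the 1531 Myc sites at the cap, 99.5% had an E2f3 site within 250 bp. The share was 99.4% for Myc ranks 1 to 2500, 88.5% for ranks 5001 to 10000, 40.2% for ranks 20001 to 32666 and 2.77% below rank 80000. Over all Myc sites, place and motif varied little with rank: in every class between 2.38% and 2.84% lay within 1 kb of a start site, and between 1.12% and 1.49% had an E-box within 50 bp. Among Myc promoter sites the E-box was rarest at the top. None of the 71 in ranks 1 to 2500 and none of the 69 in ranks 2501 to 5000 had one, against 2.52% of 119 in ranks 5001 to 10000, 1.89% of 264 in ranks 10001 to 20000, 4.02% of 348 in ranks 20001 to 32666, 5.77% of 1300 in ranks 32667 to 80000 and 3.68% of 2121 below. The Myc sites of ranks 1 to 2500 were also found within 250 bp in Rb-deficient crypt, 99.4% of them in its Myc list and 99.2% in its E2f3 list.

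The E2f3 list was ordered differently. Of the 70 E2f3 sites at the cap, 40.0% were shared, 57.1% lay within 1 kb of a start site and 51.4% had an E2F motif within 50 bp. Of E2f3 ranks 1 to 2500, 77.6% were shared, 19.9% lay at promoters and 17.2% had an E2F motif. From rank 2501 to 20000 the shared part was between 88.5% and 88.8%, with 8.66% to 10.8% at promoters. Of E2f3 promoter sites in ranks 1 to 2500, 66.0% had an E2F motif and 16.7% were shared, against 30.6% with the motif and 25.8% shared below rank 20000. Shared pairs tended to hold like ranks in both lists: partners of E2f3 ranks 2501 to 5000 had a median Myc rank of 3432, and partners of E2f3 ranks 10001 to 20000 one of 15606.

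**Figure D1:**
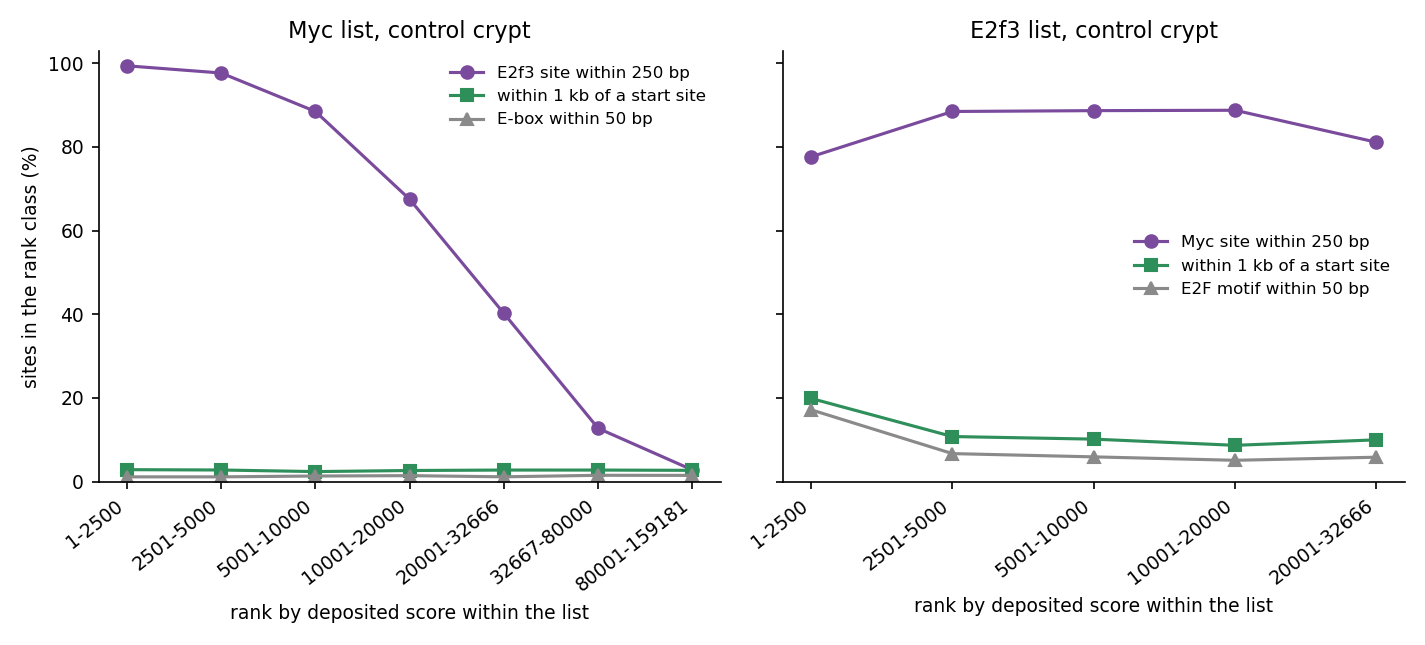
Share of the sites (%) that had a site of the other list within 250 bp (circles), lay within 1 kb of a start site (squares) or had the motif of their factor within 50 bp (triangles), in classes of rank by deposited score, for Myc on the left and E2f3 on the right. The shared part of Myc sites is 99.4% in the first class and 2.77% in the last while the other Myc lines stay flat, and the first E2f3 class stands highest for promoters and motif.

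Shared sites lay almost on top of each other. The median distance between an E2f3 site and its nearest Myc site was 13 bp over the 27739 shared E2f3 sites, with quartiles at 6 and 22 bp, and 90% of these sites lay within 32 bp. At the same base lay 695 pairs. Widening the reach to 1000 bp raised the shared E2f3 sites to 28335 of 32666, so few E2f3 sites had a Myc site at a middle distance. The same listing at Myc sites gave 27525 of 159181 within 50 bp and 32086 within 1000 bp.

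**Figure D2:**
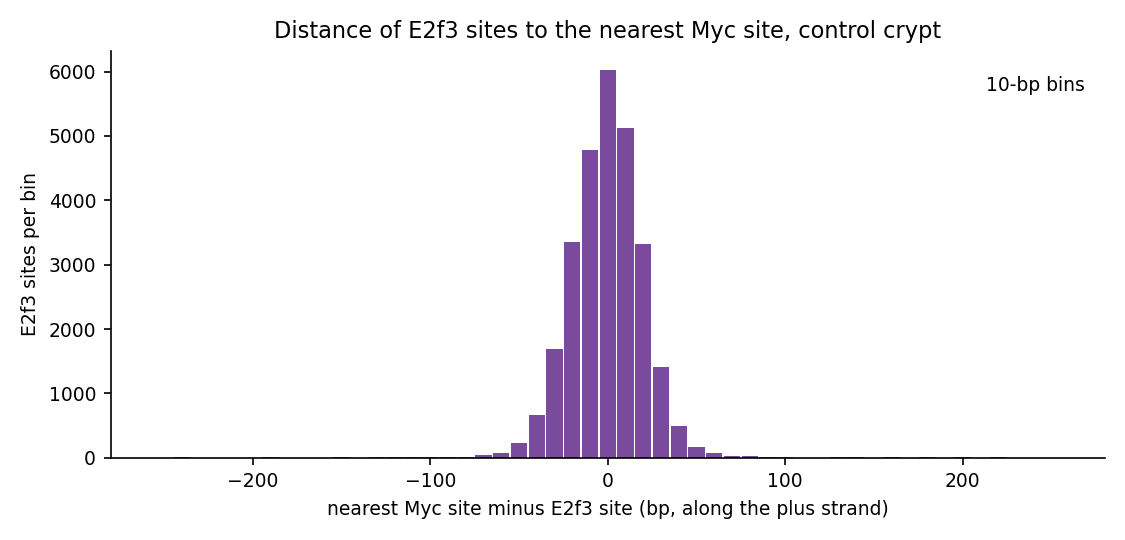
Number of E2f3 sites by the signed distance (bp) to their nearest Myc site, in bins of 10 bp, for the 27739 shared E2f3 sites. The highest bin, centred on 0, holds 6023 sites, and nearly all sites fall within 50 bp on either side.

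E2f3 sites without Myc stood apart in place, composition and motif. Of the 4927 E2f3 sites without Myc, 2499 lay within 1 kb of a start site (50.7%, 49.3 to 52.1), and 1108 of them within 100 bp. The other classes had few promoter sites: 2.60% of 129775 Myc sites without E2f3, 3.13% of 29406 Myc sites with E2f3 and 3.26% of 27739 E2f3 sites with Myc. Bases within 1 kb of a start site made up 2.31% of the reference. The median GC content over 201 bp was 63.2% at E2f3 promoter sites without Myc, with 16 CpG dinucleotides, while Myc promoter sites without E2f3 had a median of 47.3% and 3 CpG. Shared promoter sites were close to those of Myc alone, with 47.8% GC and 4 CpG at Myc sites and 48.8% GC and 4 CpG at E2f3 sites.

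The E2F motif was concentrated at E2f3 sites that had no Myc site. At promoters 1247 of 2499 E2f3 sites without Myc had it within 50 bp (49.9%, 47.9 to 51.9), and 82 of 903 E2f3 sites with Myc did (9.08%, 7.29 to 11.1). Away from promoters the E2f3 shares were 26.9% without Myc and 0.680% with Myc. In windows 2 kb from the sites the motif was found at between 0.430% and 0.997% of these E2f3 classes. E2f3 sites away from promoters that had a Myc site beside them thus stood near the level of the DNA around them, which was 0.486%. Of the Myc sites, 0.624% with E2f3 and 0.362% without E2f3 had an E2F motif, against 0.486% and 0.462% at 2 kb.

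Read the other way, the motif divided the E2f3 promoter sites by their sharing. Of 1329 E2f3 promoter sites with an E2F motif, 6.17% had a Myc site within 250 bp, and of 2073 without the motif 39.6% did. Away from promoters the shared parts were 22.6% of 807 with the motif and 94.0% of 28278 without it. The motif is not independent of how the sites were placed: GEM, which called them, is known to join site calling with motif discovery. Of E2f3 sites without Myc that had the motif, 84.6% lay at its very centre, and of E2f3 sites with Myc that had it, 56.8% did. With a window of 250 bp, 9.12% of all E2f3 sites and 2.58% of windows at 2 kb had the motif.

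E-boxes were uncommon in every class. Among Myc promoter sites without E2f3, 148 of 3371 had an E-box within 50 bp (4.39%, 3.72 to 5.14), against 1.45% at 2 kb. Among Myc promoter sites with E2f3, 27 of 921 had one (2.93%, 1.94 to 4.24), against 0.923% at 2 kb. The intervals of these classes overlapped, and both stood above their level at 2 kb. Around all start sites 2.93% had one, in windows centred on the start sites, which are not matched to the Myc sites in place. Away from promoters the Myc shares were 1.39% without E2f3 and 1.24% with E2f3, against 1.05% and 1.07% at 2 kb. E2f3 promoter sites had an E-box in 2.55% of cases with Myc and in 2.76% without Myc, so the E-box told Myc from E2f3 promoter sites far less than the E2F motif did. The E-box at Myc sites was also rarely centred: of Myc sites without E2f3 that had one, 3.05% lay at its centre, whereas 88.7% of Myc sites with an E-box did so in Rb-deficient crypt.

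**Figure D3:**
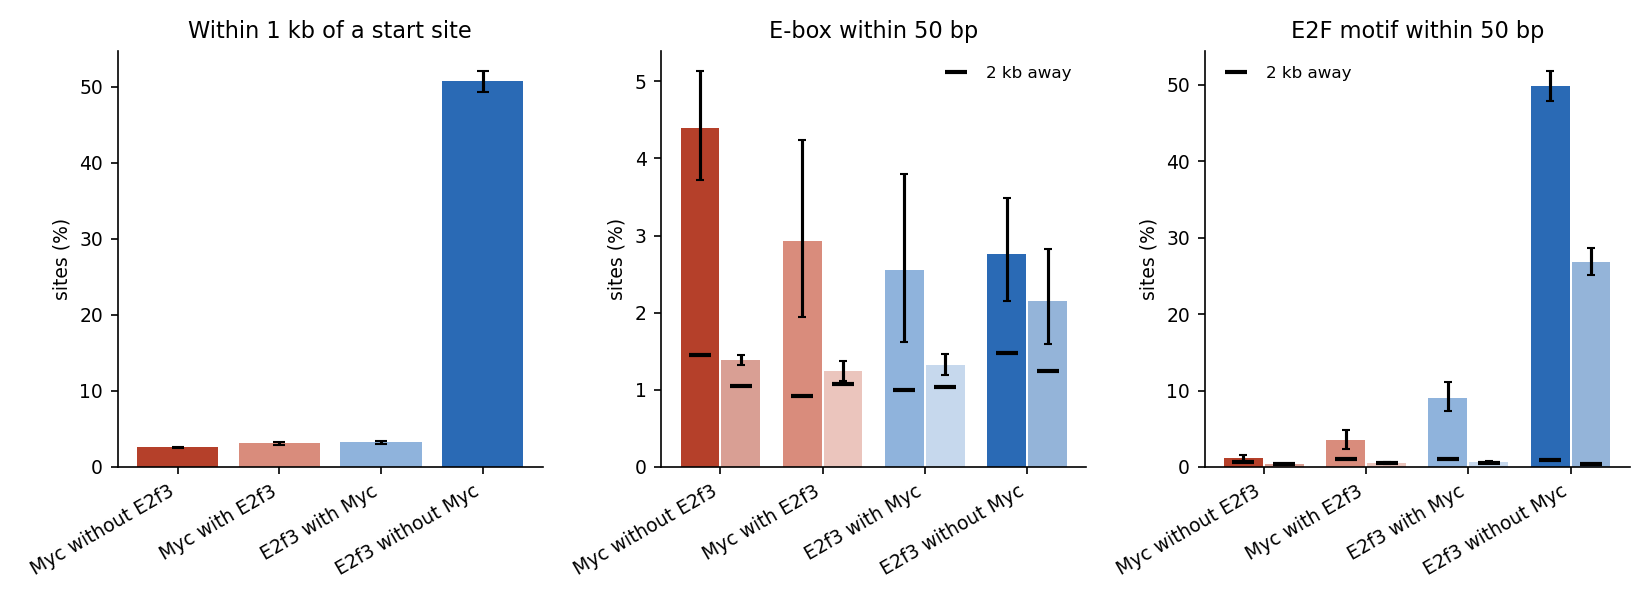
Share of sites (%) in the 4 classes that lay within 1 kb of a start site (left), had an E-box within 50 bp (middle) or an E2F motif within 50 bp (right). In the middle and right panels the left bar of each pair shows promoter sites and the paler right bar sites elsewhere; lines give exact 95% intervals and black dashes the share 2 kb away. E2f3 sites without Myc reach 50.7% at promoters and 49.9% with the E2F motif there.

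A small group of Myc promoter sites did hold E-boxes and was found again. Of 345 Myc promoter sites that lay near no site of any E2f3 library but near a Myc site of Rb-deficient crypt, 68 had an E-box (19.7%, 15.6 to 24.3). Of 2720 Myc promoter sites near no E2f3 site that were not found there, 61 had one (2.24%, 1.72 to 2.87). Seen from the motif, 85 of 148 Myc promoter sites with an E-box and without E2f3 recurred in the Myc list of Rb-deficient crypt (57.4%, 49.0 to 65.5), and 380 of 3223 without an E-box did (11.8%, 10.7 to 12.9). The Myc list of Rb-deficient crypt was itself richer in E-boxes, at 6.31% of its sites against 1.43% in control crypt. Of its sites with an E-box, 88.7% lay at the centre of the motif. Recurrence in that list is therefore not independent of the E-box. Of the 85, which had no E2f3 site within 250 bp in control crypt, 17 lay near a site of another E2f3 library. None of the 85 was found in control villus Myc, and 2 were found in Rb-deficient villus Myc. Their scores ran between 2.14 and 80.3 with a median of 17.4, so they were not the top of the Myc list. The named examples below were picked after these values were seen. Setmar, a histone methyltransferase gene, had the highest score, 80.3. Ncl had scores of 50.1 and 28.8 at its pair of sites, and the sequence above holds 5 E-boxes over 236 bp. Cct8 had 44.5, Pes1, a factor of large ribosomal subunit maturation, 22.8, the growth-signalling GTPase gene Nras 21.8 and Odc1 2.25. Of these 85 sites, 23 lay within 5 bp of the centre of their E-box.

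By gene, 3829 had a Myc promoter site, which is 17.2% of the 22232 tested, and 3240 had an E2f3 promoter site, 14.6%. Myc only was found at 2596 genes (11.7%), both at 1233 (5.55%) and E2f3 only at 2007 (9.03%). The genes with both made up 32.2% of the genes with Myc and 38.1% of those with E2f3. In 890 of the genes with both (72.2%) a Myc and an E2f3 site lay within 250 bp of each other, and in 343 they lay further apart. The counts rest on the list lengths: with only the 32666 highest-scoring Myc sites, 242 genes had Myc only, 621 both and 2619 E2f3 only. They also moved with the window, and at 5 kb 7221 genes had Myc only and 1192 E2f3 only.

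The genes with both differed by the distance between their sites. Where a Myc and an E2f3 site lay within 250 bp, 126 of 890 best E2f3 sites had an E2F motif (14.2%), and where they lay apart 163 of 343 did (47.5%). Among E2f3 only genes it was 1031 of 2007 (51.4%). The median score of the best Myc site was 56.9 where the sites were close, 11.9 where they lay apart and 11.2 among Myc only genes. Genes whose sites lay apart thus had E2f3 sites like those of E2f3 only genes and Myc sites like those of Myc only genes in these measures. An E-box lay at the best Myc site of 4.24% of Myc only genes and 4.06% of genes with both.

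Among genes with E2f3 only, 36 genes at 30 sites had a capped score. Ordered by symbol, these began with 1700066B19Rik and 1810014F10Rik and with 2810417H13Rik, which encodes a PCNA-binding factor. Alms1 encodes a centrosomal protein, Atad2 a bromodomain ATPase, Aurkb the Aurora kinase of the chromosomal passenger complex, Cdca7 a protein of dividing cells and Cdk19 a kinase of the Mediator complex. A site between Dclre1a, an interstrand crosslink repair nuclease, and its neighbour Nhlrc2 lay at -190 bp and -45 bp from their start sites. Another lay between Fhod1, an actin regulator, and the sodium-proton exchanger gene Slc9a5, at -173 bp and -132 bp. In these 10 entries the E2F motif lay within 50 bp of all sites except those of Aurkb and Cdca7. All 12 genes, picked for their capped scores, had a promoter site in the E2f3 lists of Rb-deficient crypt and of Rb-deficient villus. Of all E2f3 only genes, 85.1% had one in the first list and 62.8% in the second. Over all protein-coding genes the shares were 20.2% and 12.4%, and among genes with both 77.5% and 50.2%.

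Genes with both were mostly led by loci whose best Myc and E2f3 sites nearly coincided. The predicted genes Gm10718 and Gm10720 lie among near-identical copies at the start of chromosome 9, and their reads cannot be assigned with certainty. The best sites of Gm10720 lay 616 bp apart, and its best E2f3 site had another Myc site 2 bp away. Bard1, the partner of Brca1, had a Myc score of 265 and an E2f3 score of 282, but its best sites lay 436 bp apart: the E2f3 site lay at -31 bp from the start site with an E2F motif and the Myc site at -467 bp, with another E2f3 site 30 bp from it. In the ciliary gene Tmem67 the sites lay 2 bp apart in an intron. Taco1, a translational activator of mitochondrial cytochrome oxidase, had its sites 7 bp apart, Mon1b, an endosome factor, 5 bp, and Rnf212, a meiotic recombination factor, 11 bp apart. Shq1 had its sites 20 bp apart, ORF61 14 bp and the potassium channel domain gene Kctd1 12 bp. Of these 10 entries the best E2f3 site had an E2F motif at Bard1 and Shq1, and no best Myc site had an E-box.

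Genes with Myc only were led by Sgk2, a kinase of the serum and glucocorticoid family. Its capped Myc site lay at -990 bp from the start site with an E2f3 site 12 bp away that fell outside the window, so the class of Sgk2 depends on the window. The next Myc only gene had a score of 140, that of Actl7a. It was followed by Slfn4, a myeloid Schlafen gene, with 137, Rbm28, a nucleolar RNA-binding protein, with 134, the predicted gene Gm10916 and the membrane protein gene Tmem144 with 119 each. Ttr, the thyroxine carrier of liver and choroid plexus, also had 119, and the kinase gene Wnk4, the Notch ubiquitin ligase gene Mib2 and the ubiquitin ligase gene Kcmf1 had between 111 and 114. None of these 10 sites had an E-box within 50 bp. Of the 10 genes, which were picked by score, Actl7a and Ttr lacked a promoter site in the Myc list of Rb-deficient crypt. Of all Myc only genes, 17.7% had one there, against 8.28% of all protein-coding genes. An E2f3 promoter site in Rb-deficient crypt was present at 17.0% of Myc only genes, Actl7a and Ttr among them. Over all protein-coding genes that share was 20.2%.

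Replication genes were mostly E2f3 genes. Of 46 DNA replication genes, 1 had Myc only, 9 had both and 29 had E2f3 only, so E2f3 was present at 82.6% of them and Myc at 21.7%, against 14.6% and 17.2% of all genes. The best E2f3 site had an E2F motif at 28 of the 38 replication genes with E2f3, against 1320 of all 3240 genes with E2f3. An E2f3 promoter site in Rb-deficient crypt was also present at 37 of the 38, against 2663 of the 3240. The E2f3 score was capped at Mcm3 and Mcm4, subunits of the replicative helicase, and at Prim1, the catalytic subunit of primase. Other helicase and licensing genes with E2f3 only were Gins2 with a score of 263, Gins1 with 236, Cdc6 with 159, Gmnn with 90.7, Cdt1 with 84.1 and Mcm5 with 22.4. The clamp gene Pcna had 120 and its loader subunits had 170 at Rfc4, 74.7 at Rfc2 and 43.4 at Rfc1.

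Where a replication gene had both, Myc mostly lay apart from E2f3. At Mcm6 the Myc site had a score of 19.4 and lay 590 bp from the E2f3 site, which had a score of 298. At Tipin, a fork protection factor, they lay 455 bp apart, at the helicase cofactor gene Gins3 567 bp and at Cdc45 380 bp. At Dbf4 and Lig1 the best sites belonged to different start sites of the gene, and at Mcm7 they lay 1195 bp apart. Pola1, the catalytic subunit of DNA polymerase alpha, was the exception: its Myc site, with a score of 177, lay 19 bp from an E2f3 site with a score of 27.3 that had no E2F motif. Orc2, of the origin recognition complex, had Myc only, with a score of 43.2. Neither factor had a promoter site at Clspn, Mcm2, Orc1, Orc3, Pole, Rfc5 and Rpa3.

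Of 19 nucleotide synthesis genes, 2 had Myc only, 3 had both and 8 had E2f3 only, so Myc was present at 26.3% and E2f3 at 57.9%, against 17.2% and 14.6% of all genes. E2f3 was capped at Tyms, thymidylate synthase, and its score was 224 at Rrm1, the large subunit of ribonucleotide reductase, 146 at the thymidine kinase gene Tk1 and 119 at a site between Paics and Ppat, the purine synthesis genes that share it. The Myc only genes were Nme1, a nucleoside diphosphate kinase gene, with a score of 21.1, and Atic, of purine synthesis, with 12.0, and both of their sites had an E-box. Both factors were found at Cad, the first enzyme of pyrimidine synthesis, 198 bp apart, at Dtymk, the thymidylate kinase gene, whose best Myc site had a further E2f3 site 19 bp away, and at Rrm2, whose best sites lay 1133 bp apart.

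Of 32 Rb-E2F and G1/S regulators, 4 had Myc only, 2 had both and 13 had E2f3 only, which put Myc at 18.8% and E2f3 at 46.9%, against 17.2% and 14.6% of all genes. The E2F family was largely in the E2f3 class: E2f2 had a score of 206, E2f8 203, E2f1 45.0, E2f6 19.2 and E2f5 5.80, with E2f3 only. The E2f3 gene had both, a capped E2f3 site at -403 bp with no Myc site within 250 bp, and 976 bp from it a Myc site with a score of 113 that had another E2f3 site 26 bp away. The pocket protein gene Rbl1 had an E2f3 score of 255, the Cdk4 inhibitor gene Cdkn2c 62.9, Mybl2 56.9, the phosphatase gene Cdc25a 54.7, Ccne1, which encodes cyclin E1, 31.0, and Cdk2 30.8. Of the D-type cyclin genes, Ccnd1 had a Myc score of 7.70 and Ccnd2 one of 11.3, both with Myc only, and Ccnd3 had neither. The repressor gene E2f7 and the dimer partner gene Tfdp2 completed the Myc only class with Myc scores of 2.53 and 4.12. Tfdp1, which encodes the partner of E2F proteins on DNA, had both. Rb1, Rbl2, E2f4, Ccna2, Cdk4, Cdk6, Cdkn1a, Cdkn1b, Cdkn2a, Lin9, Lin54 and Skp2 also had neither.

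Of 12 genes of the Myc network, 3 had Myc only, none had both and 3 had E2f3 only. Over all genes these classes held 11.7%, 5.55% and 9.03%, so 12 genes are too few to read the lack of genes with both. The E2f3 sites lay at Myc itself, with a score of 121 at -81 bp, at its paralog Mycn, with 114 at -98 bp, and at Mxd3, which encodes a Max-binding repressor, with 299 at -363 bp, and each had an E2F motif. The Myc sites lay at Mxi1 and Mnt, which also encode Max-binding repressors, with scores of 28.7 and 19.8, and at Mlxip, with 21.2 and an E-box. Max, Mga, Mlx, Mxd1, Mxd4 and Mycl1 had neither. The Myc gene thus had a promoter site of E2f3 and none of Myc in control crypt.

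Mitotic and repair genes had E2f3 more often than Myc. Of 37 G2/M and mitosis genes, 3 had Myc only, 9 both and 15 E2f3 only, so Myc was present at 32.4% and E2f3 at 64.9%, against 17.2% and 14.6% of all genes. E2f3 was capped at Aurkb and had a score of 228 at Incenp, its partner in the chromosomal passenger complex, and 158 at the kinetochore gene Nuf2. Both factors were found at Top2a, topoisomerase II alpha, with scores of 4.46 for Myc and 259 for E2f3, and at Cdk1, with 12.6 for Myc and 256 for E2f3. Myc only was found at Aurka, at a site with an E-box and a score of 23.0, at Kif20a and at Cenpa. The E2F motif was at the best E2f3 site of 3 of the 24 mitotic genes with E2f3, against 1320 of all 3240 genes with E2f3. Of 24 repair and checkpoint genes, 2 had Myc only, 5 both and 11 E2f3 only, or 29.2% with Myc and 66.7% with E2f3, with E2f3 scores of 183 at the checkpoint kinase gene Chek1 and 161 at the mismatch repair gene Msh6. Fancd2 and Rbbp8 had Myc only.

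Genes of ribosome production and growth were found in every class. Of 29 ribosome biogenesis genes, 4 had Myc only, 4 both and 6 E2f3 only. Myc only made up 13.8% of the list, near the 11.7% of all genes, while any Myc came to 27.6% and any E2f3 to 34.5%, against 17.2% and 14.6% of all genes. Myc only was found at Pes1, Gar1, Nop16 and Polr1a, with the E-box at the best site of Gar1. E2f3 only was found at Nop58, a box C/D small nucleolar RNP protein, with a score of 270, Utp20 with 90.8, Fbl, which encodes fibrillarin, with 65.4, and Gnl3 with 63.0. Nolc1 had a capped E2f3 site and a Myc site with a score of 17.4, and Nop56 a Myc site with a score of 187 at 17 bp from an E2f3 site. Of the 8 genes with Myc, 6 also had one in the Myc list of Rb-deficient crypt, as did 1093 of the 3829 Myc genes overall. Of 28 Myc growth and metabolism targets, 4 had Myc only (Nampt, Eif4a1, Phb and Tert), 6 both and 6 E2f3 only, or 35.7% with Myc and 42.9% with E2f3. E2f3 only was found, among others, at the serine metabolism gene Shmt2, the initiation factor gene Eif2s1, the chaperone gene Hspe1 and the amino acid transporter gene Slc7a5.

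Of 84 cytosolic ribosomal protein genes, 12 had Myc only, 6 both and 15 E2f3 only. Myc was present at 21.4%, near the 17.2% of all genes, and E2f3 at 21 of the 84, against 14.6% of all genes. Rpl32 led the Myc only members with a score of 63.7 and Rpl12, with an E-box, had 33.2, while Rps20 led the E2f3 only members with 196 and Rpl3 had 174. Of the 18 with Myc, 13 recurred in the Myc list of Rb-deficient crypt, against 1093 of all 3829 genes with Myc. Ribosomal protein genes have many processed copies, and how reads with several matches were treated is not given in the sources used here. Of 76 mitochondrial ribosomal protein genes, 12 had Myc only, 7 both and 15 E2f3 only, so Myc was present at 19 and E2f3 at 22 of the 76, with a capped E2f3 site at Mrps12 and a capped Myc site at Mrpl50.

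Of 35 aminoacyl-tRNA synthetase genes, 10 had Myc only, 9 both and 3 E2f3 only. Myc was present at 54.3%, the highest Myc share of the 21 lists, against 17.2% of all genes, and E2f3 at 34.3%, against 14.6% of all genes. Mars2, of mitochondria, had a Myc score of 75.1, and Mars, Iars2 and Aars2 had 24.0, 23.2 and 12.3. At Vars both scores were high for their lists, 120 for Myc and 310 for E2f3. At Tars the Myc site, with a score of 31.2, had an E-box and the E2f3 site, with a score of 19.9, an E2F motif. Over the list, 1 of 19 best Myc sites had an E-box, against 160 of all 3829 genes with Myc. In Rb-deficient crypt Myc 7 of the 19 genes recurred, against 1093 of the 3829.

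Of 67 replication-dependent histone genes, 4 had Myc only, 3 both and 18 E2f3 only, so Myc was present at 10.4% and E2f3 at 31.3%, against 17.2% and 14.6% of all genes. Hist1h3g, Hist1h2bn and Hist2h4 had capped E2f3 sites, and Hist1h4f had a score of 278. The genes lie in dense clusters of near-identical copies, so a site can count for several of them, and their assignment is uncertain. Among Myc only members Hist1h2an had the highest score, 59.4. None of the 7 histone genes with Myc had it in Rb-deficient crypt, against 1093 of all 3829 genes with Myc. Of the 21 with E2f3, 20 had E2f3 there, against 2663 of all 3240 genes with E2f3.

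The lists of intestinal genes had Myc at 6 of 25 stem cell and Wnt genes, 6 of 20 intestinal transcription factors, 3 of 20 villus enterocyte genes and 3 of 20 secretory lineage genes, around the 17.2% of all genes. E2f3 was present at 10, 6, 0 and 2 members of these lists, in the same order, against 14.6% of all genes. Of the stem cell and Wnt genes, 2 had Myc only (Znrf3 and Cd44), 4 both (Apc, Axin2, Hopx and Sox9) and 6 E2f3 only, led by the Notch target gene Hes1 with a score of 29.9. Lgr5, Ascl2 and Bmi1 had neither. Of 20 intestinal transcription factors, 4 had Myc only, among them Nr1h4, Hnf4g and Klf4. Gata4 and Vdr had both, and Elf3, Klf5, Foxa2 and Cdx2 had E2f3 only. Of 20 villus enterocyte genes, Mttp, Sis and Mgam had Myc only and none had E2f3. Of 20 secretory lineage genes, Chgb had Myc only, and Agr2 and the mucin gene Muc2 had both. Among 18 apoptosis and p53 pathway genes, 16.7% with Myc and 33.3% with E2f3, Bbc3 had both, Mdm4 and Bcl2l1 Myc only, and 5 genes E2f3 only, among them the initiator caspase gene Casp8 and the p53 target Pmaip1.

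Genes of other cell types, with Myc at 12.5% to 15.0% and E2f3 at 0% to 6.25% of each list, served as a comparison. Of 16 immune genes, Itgax and Nkg7 had Myc only, of 16 stromal and endothelial genes Pdgfra had Myc only and Lum both, and of 20 genes of other tissues Ttr and Umod had Myc only and Snap25 both. Of 1087 olfactory receptor genes, which are silent in most tissues, 69 had Myc only, 12 had both and none had E2f3 only. Myc was thus present at 7.45% of olfactory receptor genes, against 17.2% of all genes, and E2f3 at 1.10%, against 14.6%. In all 12 the best E2f3 site had a Myc site within 250 bp and no E2F motif, and no best Myc site of the 81 had an E-box.

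**Figure D4:**
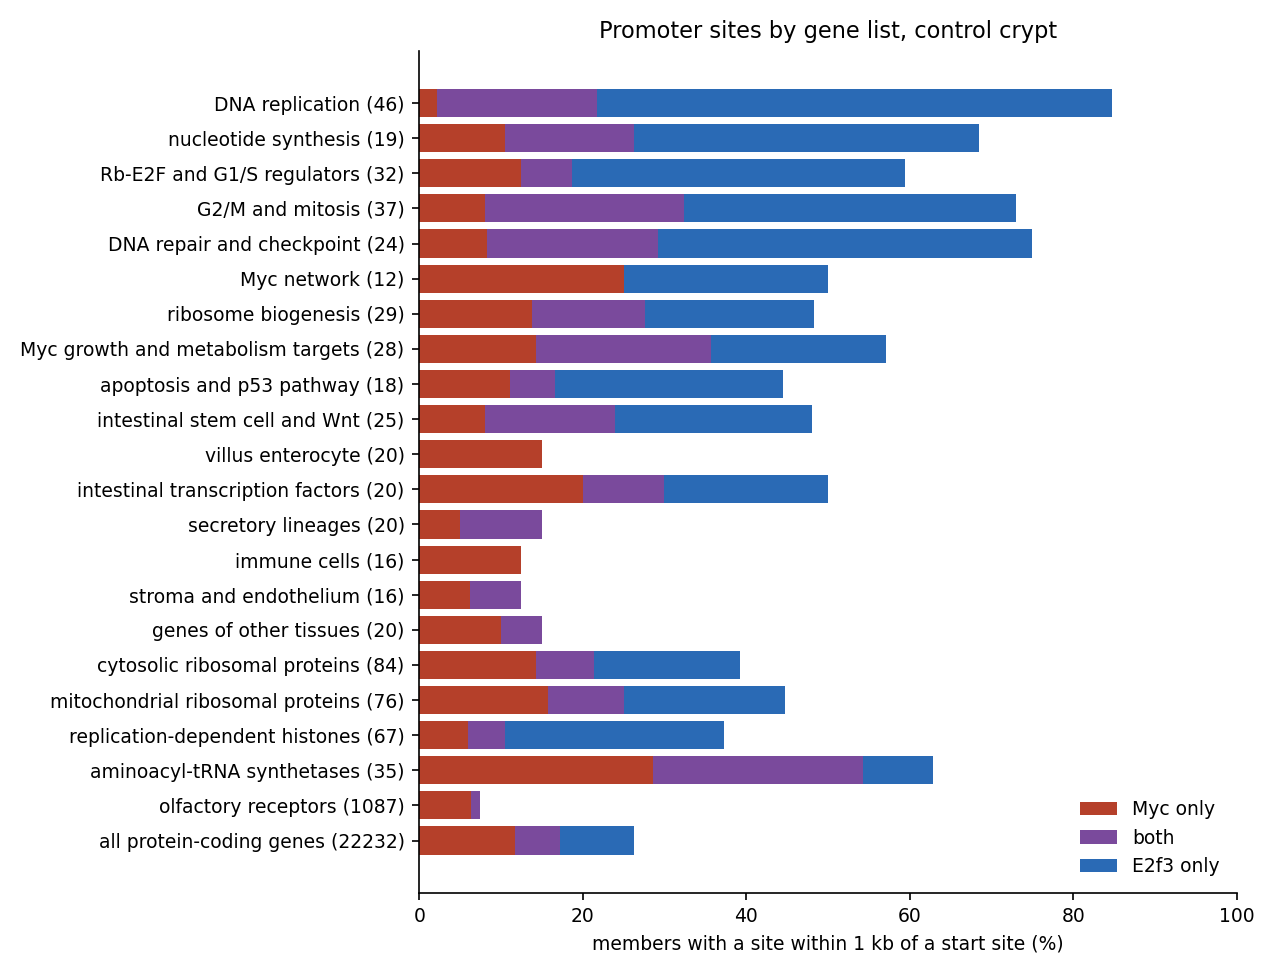
Share of the members (%) of each gene list with a site of Myc only, both or E2f3 only within 1 kb of a start site, with the number of members in brackets and all protein-coding genes at the bottom. DNA replication genes reach 82.6% with E2f3, aminoacyl-tRNA synthetase genes 54.3% with Myc, and olfactory receptor genes 7.45% with Myc.

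The classes also recurred differently in the other 6 libraries. Of Myc promoter sites without E2f3, 13.8% lay within 250 bp of a Myc site of Rb-deficient crypt. For the Myc sites of Rb-deficient villus it was 0.415% and for those of control villus 0.326%. Near an E2f3 site lay 7.71% of this class in Rb-deficient crypt, 2.67% in Rb-deficient villus and 0.326% in control villus. Of Myc promoter sites with E2f3, 59.7% were found in the Myc list of Rb-deficient crypt and 65.6% in its E2f3 list. Shared sites were thus found again with either antibody, in control villus as well, where 17.6% lay near a Myc site and 21.7% near an E2f3 site. Of E2f3 promoter sites without Myc, 82.6% lay near an E2f3 site of Rb-deficient crypt and 5.92% near a Myc site there, and 27.7% near an E2f3 site of control villus and 0.0800% near a Myc site there. E2f3 sites without Myc were in this way found again with the E2f3 antibody and hardly with the Myc antibody. At E2f3 promoter sites without Myc the part found in Rb-deficient crypt E2f3 was 86.7% with an E2F motif and 78.4% without it.

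Away from promoters, 8.16% of Myc sites without E2f3 were found in Rb-deficient crypt Myc and 3.94% in its E2f3 list. Of E2f3 sites without Myc there, 45.3% were found in Rb-deficient crypt E2f3 and 11.4% in its Myc list, so these were nearer to each other than at promoters. Of these last sites, 77.3% were found in Rb-deficient crypt E2f3 when they had an E2F motif and 32.7% when they had none. Myc sites with E2f3 away from promoters were found in Rb-deficient crypt Myc in 65.3% of cases and in its E2f3 list in 57.2%. Median Myc scores away from promoters were 66.7 with E2f3 and 10.1 without E2f3.

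**Figure D5:**
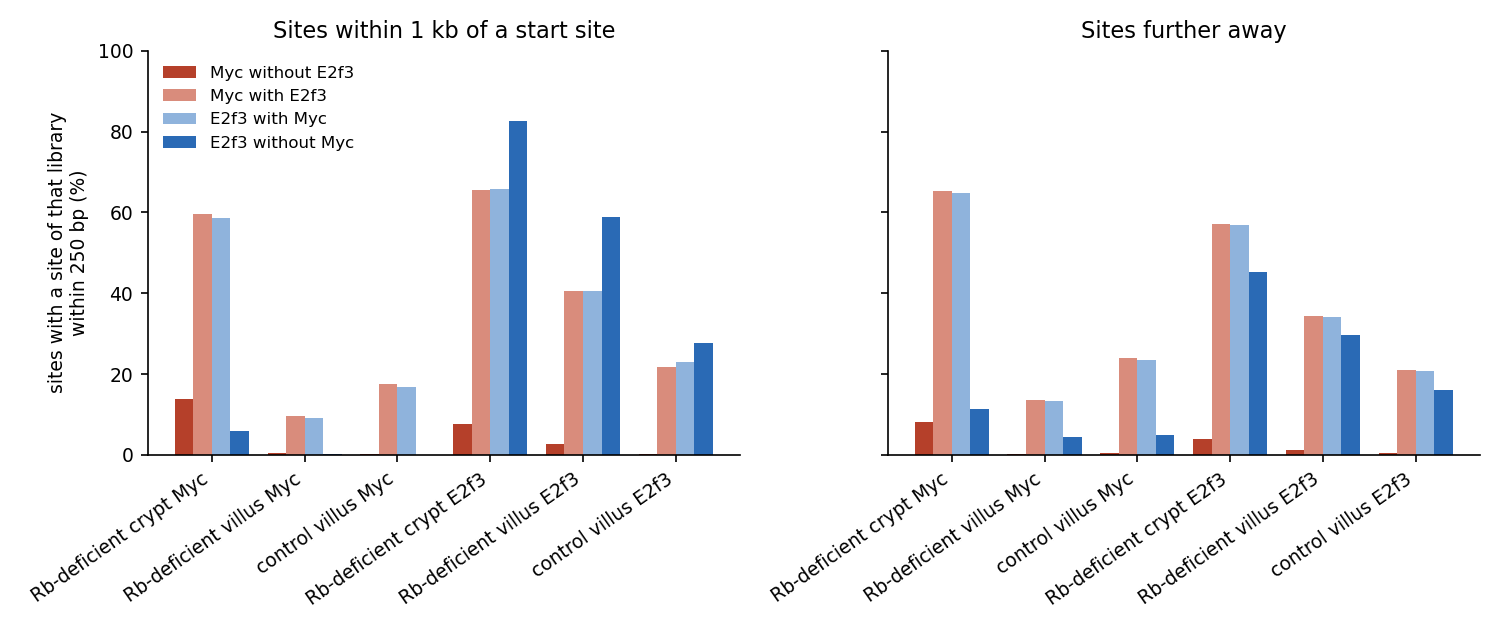
Share of the sites (%) of each class with a site of each of the other 6 libraries within 250 bp, for sites within 1 kb of a start site on the left and other sites on the right. E2f3 promoter sites without Myc reach 82.6% in Rb-deficient crypt E2f3 and 5.92% in its Myc list, while shared sites are found in both.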

How the data were processed

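Per the labels, ChIP-exo libraries of Myc and E2f3 were made from crypt cells of wild-type mice. The tools Bowtie2 2.2.1 and MACS2 2.0.10 and the build mm9 are named, without their roles, in the submitters' processing notes. The file names call the deposited entries GEM events in MACS2 peaks, merged and with duplicates kept. The sources used here give neither what was merged nor the version of GEM, the thresholds and the read numbers. The deposited score of each site was used as the authors gave it, for ranking within a list. Positions were taken to count from 0, and 1 was added. Of the sites, 184 of the Myc and 179 of the E2f3 list lay on contigs outside NCBIM37 and received no gene or motif.

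Start sites were those of protein-coding transcripts of protein-coding genes in GENCODE M1. Motifs were searched within 50 bp of a site, and again in windows 2 kb to each side. Exact intervals were computed with SciPy 1.17.1, tables with pandas 2.3.3 and NumPy 2.4.6 in Python 3.11.15, and figures with Matplotlib 3.10.9. Scripts were tested on simulated data. The members and gene lists were chosen with earlier results of these data known. Named were the 10 top entries of each class by score (for both, by the poorer of the ranks in each library), up to 4 members per class of a list, and any member of the DNA replication, Rb-E2F and Myc network lists. Genes sharing a site counted as 1 entry. The symbols Ticrr and Noc2l of the lists were not in the annotation. Alternatives were other distances, windows, list lengths and start sites. The start sites of every transcript had been planned for the main counts; after the data were seen they became the alternative, to match the definition of a promoter used here.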

Additional observations from a re-analysis of the deposited data

How the results depend on the processing

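Of 47 alternative values, 17 stayed within the interval of the reported share or within 1.5 times the reported count, and 30 did not. No paired analysis was possible because each antibody had 1 library, and no replicate could be left out. Shared Myc sites made up 18.0% within 100 bp, 19.0% within 500 bp, 18.8% in the upper 50% of each list by score and 64.9% at equal list length. Shared E2f3 sites made up 84.4%, 85.5%, 86.4% and 64.4% in the same settings, and, added after seeing the data, 26.5% of promoter sites and 91.7% of other sites. With a window of 500 bp, 1456 genes had Myc only and 610 had both. With 5 kb, 7221 had Myc only, 4574 both and 1192 E2f3 only. In the upper 50% of each list, 1539 had Myc only, 546 both and 1286 E2f3 only. At equal list length 242 had Myc only and 621 both, since that setting keeps fewer Myc sites. The start sites of every transcript, the alternative chosen after seeing the data, gave 3183 genes with Myc only, 1653 with both and 1857 with E2f3 only. Without chromosome 9 below 3.1 Mb, also added after seeing the data, 2594 had Myc only, 1224 both and 2007 E2f3 only.

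An E-box lay within 25 bp of 0.699% of Myc sites and 0.659% of E2f3 sites, and within 250 bp of 7.36% of Myc sites and 8.05% of E2f3 sites. At equal list length 1.24% of Myc sites had one within 50 bp. An E2F motif lay within 25 bp of 0.182% of Myc sites and 6.21% of E2f3 sites, within 250 bp of 2.08% of Myc sites and 9.12% of E2f3 sites, and within 50 bp of 7.44% of the upper 50% of E2f3 sites. Wider windows hold more DNA, and at 250 bp the E2F motif was 3.53 times as frequent at E2f3 sites as 2 kb away, against 12.5 times at 50 bp. Unknown depth and the lack of replicates limit every count of sites that the lists do not share: a site missing from a list was not shown to be unbound.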

Other observations

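Both lists were sparser on the X chromosome. The X held 32.8 Myc sites per Mb, against 62.1 on the autosomes, and 6.06 E2f3 sites per Mb, against 12.7 on the autosomes. The Y chromosome held 7 Myc and 2 E2f3 sites. On the mitochondrial chromosome the Myc list had 0 sites and the E2f3 list 5. E2f3 sites without Myc numbered 0.654 per Mb on the X, against 1.91 on the autosomes.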
